A study of Mus musculus with 11 samples.

Results

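Kinesins are motor proteins that walk along microtubules or take them apart. The mouse kinesin superfamily was followed here in RNA fragments that came down with FMRP, whose loss causes Fragile X syndrome. Members were the rows of the deposited table whose symbol is Kif, a number and at most 1 letter from a to c. That gave 37 kinesin genes of 30986 rows. They were listed as 18 neuronal transport kinesins, 12 mitotic kinesins and 7 ciliary and other kinesins. The transport list is broad, since it also holds Kif2a, which takes microtubule ends apart, and the atypical kinesin Kif26b with its paralog Kif26a.

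In neurons, transport kinesins carry vesicles, mitochondria, receptors and RNA granules from the cell body into axons and dendrites. Kif1a and Kif1b move synaptic vesicle precursors and other membrane cargo, Kif5a, Kif5b and Kif5c are the heavy chains of conventional kinesin, and Kif3a, Kif3b and Kif3c form kinesin-2. Mitotic kinesins build and position the spindle of dividing cells, and most neurons have left the cell cycle. FMRP is known for holding back the translation of many neuronal mRNAs, mainly long ones.

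Brain tissue came from mice at postnatal day 13; no strain or genotype is given in the sources used here. Ultraviolet light at 254 nm, given 3 times at 400 mJ, crosslinked RNA to protein, FMRP was immunoprecipitated and the bound RNA was sequenced as small fragments. The groups were 2 cerebellum samples, 3 cortex samples and 4 hippocampus samples, all prepared in this way. Cortex and hippocampus together are called forebrain. Hippocampus 1 and 2 showed no difference beyond sampling noise, so they were summed and counted as 1 sample, hippocampus 1+2. An eleventh library, titled as cortex but labelled as hippocampus tissue, was kept out of the comparisons. No input library was used here, so the amount of an RNA and its binding to FMRP cannot be told apart, and neither can fewer cells of a type and less RNA per cell.

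Totals ran from 11898 to 197382 counts per sample, and levels are given as CPM, each count scaled to a total of 1000000. The limit set by a count of 0 (3 counts) was 15.2 CPM in the deepest sample and 252.1 CPM in the shallowest. For cerebellum against forebrain, edgeR called 3 of 3 tested granule cell markers (9 listed) and 1 of 2 tested Purkinje cell markers (5 listed) higher (3.9% of all tested rows were). Of the telencephalic excitatory markers, 3 of 4 tested (7 listed) were called lower (3.78% were). A marker can pass the filter on low counts through the region where it is high alone, so these calls are a weak check of the labels. For cortex against hippocampus, 0 of 3 tested hippocampal neuron markers were called, with all 3 lower in cortex at an unadjusted p under 0.05 (3.95% of all tested rows had such a p in either direction), so the labels of these 2 regions are less well checked. Cortex 3, hippocampus 3 and hippocampus 4 stood apart from the other forebrain samples. Predicted gene names took 12.2 to 12.6% of their counts, against 3.1 to 7.49% in the other 4 forebrain samples and 7.18 and 7.29% in cerebellum. The results below are therefore given with and without these 3 samples where that matters.

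FMRP has been reported to bind short GGA-containing elements, so the 60 bases of coding sequence with the most TGGA or AGGA were taken from the longest coding transcript (GENCODE M21, GRCm38) of the 4 kinesins with the highest level per length, of Kif26b, the only kinesin called between regions, and of Kif4, the mitotic kinesin with the highest level per length. Capitals mark TGGA or AGGA on the RNA strand, read 5′ to 3′, and overlapping matches are counted separately. The windows are a description of the sequence; the deposited table does not say where in a gene a fragment lay.
Kif1a: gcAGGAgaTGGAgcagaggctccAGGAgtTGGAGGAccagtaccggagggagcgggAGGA
Kif5a: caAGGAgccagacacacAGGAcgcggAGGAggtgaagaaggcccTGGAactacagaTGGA
Kif1b: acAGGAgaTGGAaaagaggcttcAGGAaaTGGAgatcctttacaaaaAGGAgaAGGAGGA
Kif5c: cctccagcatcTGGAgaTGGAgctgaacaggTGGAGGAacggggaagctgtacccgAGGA
Kif26b: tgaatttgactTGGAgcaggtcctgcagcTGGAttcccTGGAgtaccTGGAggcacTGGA
Kif4: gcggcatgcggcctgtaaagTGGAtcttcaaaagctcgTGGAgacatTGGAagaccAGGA

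The Kif1b window held 7 matches, a number reached in the densest window of 3.56% of 18935 coding genes, and the Kif1a window held 6, reached in 8.7%. The windows of Kif5a, Kif5c and Kif26b held 5, reached in 24.3%, and that of Kif4 held 4, reached in 55.2%. These shares are not matched for length. A longer coding sequence holds more windows, and those of Kif1b and Kif1a have 5448 and 5091 bases. Over whole coding sequences, TGGA and AGGA together occurred 18.7 times per kb in Kif1a, 23.4 in Kif5a, 27.2 in Kif5c and 12.6 in Kif26b. The median was 19.6 per kb (from 12.3 to 27.2) over the 12 kinesins that passed the filter on low counts. It was 16 over the 1640 tested rows with a coding transcript. Of the kinesins that did not pass, the 12 mitotic ones had a median of 17.3 and the 7 ciliary and other ones 22. All 18940 rows with a coding transcript had 15.9. The highest class median thus belonged to kinesins with few fragments. ACTG and ACTT, another pair of short elements counted over coding sequences, were rarer in the tested kinesins. Their median was 6.35 per kb there and 8.25 over the tested rows with a coding transcript. It was 8.92 over the mitotic kinesins, 7.48 over the ciliary and other ones and 8.49 over all coding rows.

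Transport kinesins made up nearly all kinesin fragments. Of 6811 kinesin counts in the 9 samples, 6484 lay on transport kinesins, 196 on mitotic kinesins and 131 on ciliary and other kinesins. Kif1a, Kif1b, Kif5a and Kif5c alone took 73.1%, from 45.4% in the lowest sample to 84.3% in the highest. Because longer transcripts give more fragments, levels of different genes were compared per kb of transcript. The median over the 9 samples' means was 32 CPM per kb for transport kinesins, 5.49 for mitotic kinesins and 5.01 for ciliary and other kinesins, against 6.49 over all 18940 rows with a coding transcript. Mitotic kinesins thus lay near the middle of all coding rows. The filter on low counts was passed by 12 of 18 transport, 0 of 12 mitotic and 0 of 7 other kinesins, beside 1640 of 18940 coding rows. At that share the counts of 0 are no result about those classes. The filter takes no account of length, and the median transcript had 6737.5 bases for transport and 3536 for mitotic kinesins.

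**Figure D1:**
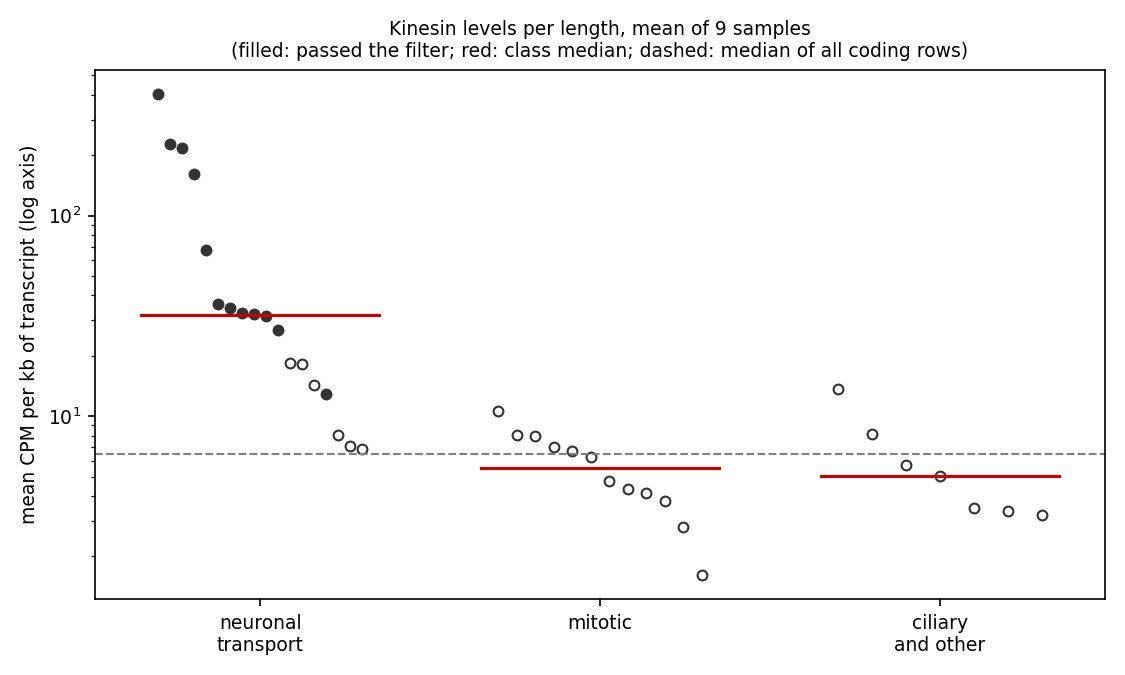
Mean level of each kinesin over the 9 samples in CPM per kb of its longest coding transcript (log axis), by class. Filled points passed the filter on low counts, red lines are class medians (32, 5.49 and 5.01) and the dashed line is the median of all coding rows (6.49). Kif1a, Kif5a, Kif1b and Kif5c lie furthest to the high end.

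Per length, the same 4 kinesins stood in front in 9 of 9 samples, with Kif1a first in each. Kif1a averaged 308.3 ± 8.16 CPM per kb in the 2 cerebellum samples, 487.7 ± 205 in the 3 cortex samples and 389.5 ± 305 in the 4 hippocampus samples (mean ± SD). Kif1b followed in cerebellum with 196 ± 22.4 CPM per kb, ahead of Kif5c with 120 ± 14.2 and Kif5a with 100.8 ± 12.8. The means of Kif5c and Kif5a differed by more than either SD, and with 2 samples this was not tested. In cortex and hippocampus the mean of Kif1a led that of the next kinesin by less than its own SD. There Kif5a stood before Kif1b, with 303.6 ± 162 against 245.5 ± 123 CPM per kb in cortex and 232.5 ± 172 against 208.9 ± 142 in hippocampus, differences smaller than their SD. Kif21b, a kinesin that pauses microtubule growth and is enriched in dendrites, averaged 42.7 ± 1.41, 110.6 ± 49.6 and 47.7 ± 13.4 CPM per kb in cerebellum, cortex and hippocampus. It came next in cortex and hippocampus, while in cerebellum it stood just below Kif5b (45.5 ± 12.8) and Kif1c (43.3 ± 14.1), by less than their SD.

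Between cerebellum and forebrain, 1 of the 12 tested kinesins was called, Kif26b, which was higher in cerebellum (edgeR quasi-likelihood test with Benjamini-Hochberg adjusted p under 0.05 over 1720 rows). That is 8.33% of the tested kinesins, near the 7.67% called over all tested rows, so the count is no result about kinesins as a group. Rows called higher were 3.9% of those tested and rows called lower 3.78% (67 of 132 calls higher, and 37 of 54 with library totals alone). The median log2 fold change was -0.02 over the 12 kinesins and 0.002 over all tested rows. With the numeric title code as a block, cerebellum was set directly only against cortex 1, hippocampus 1+2 and hippocampus 3. Cortex 2, cortex 3, hippocampus 4 and hippocampus 5 have a code without cerebellum. They entered the cerebellum values only through the cortex to hippocampus difference and the spread. Between cortex and hippocampus 0 of the 12 were called in edgeR, with 2 at an unadjusted p under 0.05 and 0 called in DESeq2, beside 0% called over all tested rows (68 of 1720 at an unadjusted p under 0.05, and 1 called in DESeq2). Their median was 0.006, against -0.04 over all.

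Kif26b lies at chr1:178529125-178939200 on the plus strand (GRCm38). It encodes an atypical kinesin whose motor domain binds microtubules without the usual ATPase activity, known from kidney development and Wnt5a-Ror signalling. It had 324.8 and 349.6 CPM in cerebellum, against 0, 71.7 and 84 CPM in cortex and 153.5, 102.3, 273.4 and 232.2 CPM in hippocampus (1+2, 3, 4 and 5). By library totals every cerebellum sample lay above every forebrain sample, a pattern of 9.3% of tested rows. With the TMM scaling factors of the test (0.7735 for hippocampus 4, 0.9998 for cerebellum 1), hippocampus 4 lay above cerebellum 1. The log2 value of Kif26b for cerebellum over forebrain was 2.44 (SE 0.62, adjusted p = 0.00354, edgeR). Compared only with forebrain samples that share its numeric title code, cerebellum 1 gave 2.1 and cerebellum 2 gave 1.16. Leaving out single samples kept the value between 2.15 and 2.72, but the call was lost without cerebellum 1 (adjusted p = 0.387, edgeR), without cerebellum 2 (0.141), without cortex 1 (0.24) and without the filter on low counts (1). Counts were small, at 31 and 69 in cerebellum, against 0, 4 and 1 in cortex and 20, 12, 6 and 5 in hippocampus.

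Kif26b was also the kinesin with the largest difference between cortex and hippocampus among those tested, at -2.46 on the log2 scale (SE 0.79, adjusted p = 0.528, edgeR), which did not pass. Its 3 cortex samples all lay below the 4 hippocampus samples, as did 1.45% of tested rows. The cortex 1 count of 0 allows up to 97.7 CPM, close to the lowest hippocampus value.

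**Figure D2:**
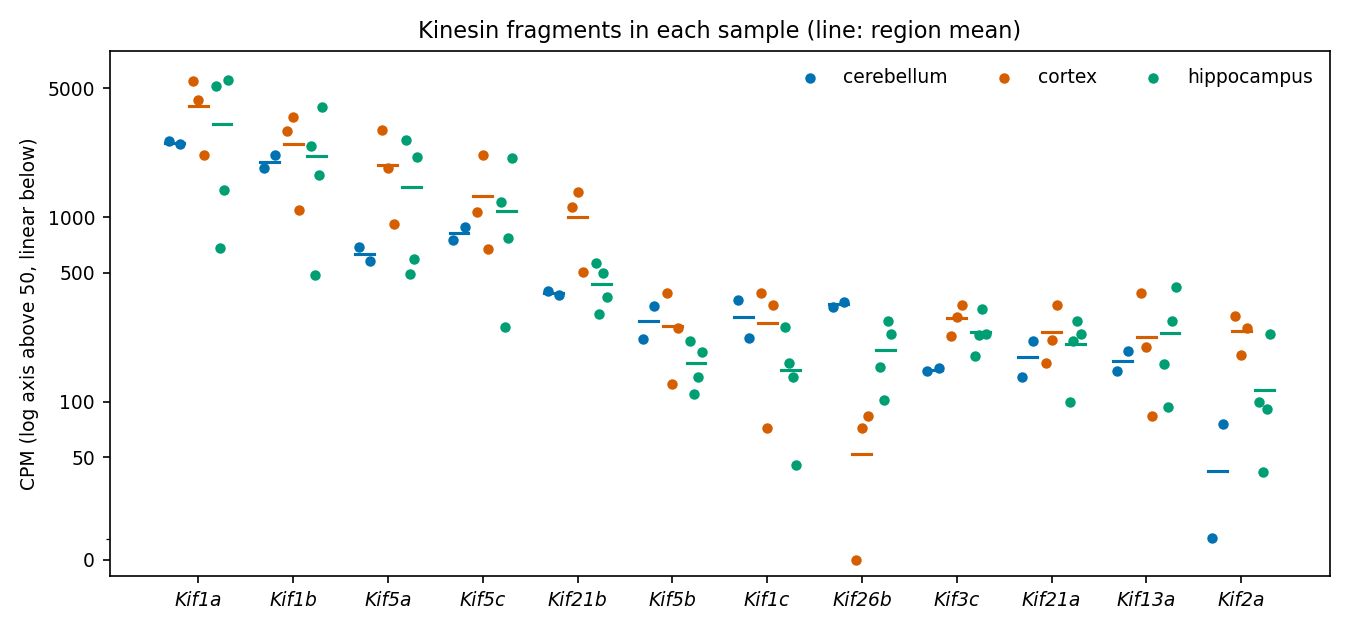
CPM of the 12 tested kinesins in each sample (points; axis logarithmic above 50 CPM and linear below), with lines at the region means. For Kif26b the 2 cerebellum samples (324.8 and 349.6 CPM) stand above all forebrain samples; for most others cerebellum lies within the range of forebrain.

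The synaptic vesicle motors did not differ between regions beyond the spread of the samples. Kif1a (chr1:93015464-93101951, minus strand) had 2577 and 2483 CPM in cerebellum, against 5501, 4320 and 2185 CPM in cortex and 5165, 681.9, 1413 and 5527 CPM in hippocampus. The cerebellum samples lay close together inside a wide forebrain range. For cerebellum over forebrain the log2 value was 0.05 (SE 0.7, adjusted p = 0.996, edgeR). Within title codes it was -0.87 for cerebellum 1 and 1.26 for cerebellum 2. Hippocampus 3, with the lowest Kif1a level, is the only forebrain sample in the code of cerebellum 2. Without cerebellum 2, so with cerebellum 1 alone, the value was -0.84 and did not pass. Without the 3 samples that stand apart the value was -0.88 and passed (adjusted p = 0.0078, edgeR), though that contrast then rests on cerebellum 1 alone.

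Kif1b had 1844 and 2168 CPM in cerebellum, against 2930, 3514 and 1093 CPM in cortex and 2433, 485.8, 1686 and 3948 CPM in hippocampus. Its log2 fold change was 0.49 (SE 0.63, adjusted p = 0.808, edgeR), again with opposite signs in the codes of cerebellum 1 (-0.35) and cerebellum 2 (1.55). Kif1c, a motor of Golgi and RNA cargo, had 356.2 and 222.9 CPM in cerebellum against 46.4 to 390.6 CPM in the 7 forebrain samples (median 161.9), and a log2 fold change of 0.1 (SE 0.52).

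Conventional kinesin showed a lower Kif5a value in cerebellum that missed the threshold. Kif5a, the neuron-specific heavy chain, lies at chr10:127225696-127263348 on the minus strand. It had 691.4 and 577.6 CPM in cerebellum, against 2962, 1846 and 924.5 CPM in cortex and 2632, 494.4, 592.4 and 2136 CPM in hippocampus. Cerebellum lay below 5 of the 7 forebrain samples and at the level of hippocampus 3 and 4. The log2 fold change was -1.22 (SE 0.58, adjusted p = 0.23, edgeR), with -1.84 and -0.38 in the codes of cerebellum 1 and cerebellum 2. It passed without hippocampus 3 (-1.81, adjusted p = 0.0112, edgeR) and without the 3 samples that stand apart (-1.84, adjusted p = 6.92e-08), both resting on cerebellum 1 alone. Without cerebellum 2, which also leaves cerebellum 1 alone, it was nearly the same at -1.8 and did not pass. Without cerebellum 1 it was -0.19.

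Kif5c, a neuronal heavy chain with dendritic cargo, had 754.3 and 891.7 CPM in cerebellum, against 1074, 2169 and 672.4 CPM in cortex and 1205, 255.7, 774.7 and 2090 CPM in hippocampus (0.27 on the log2 scale, SE 0.55). Kif5b, the heavy chain made in most cell types, had 220 and 329.3 CPM in cerebellum, against 390.6, 125.5 and 252.1 CPM in cortex and 214.9, 110.8, 136.7 and 185.8 CPM in hippocampus (0.24, SE 0.54). The ranges of both genes overlapped between regions.

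The division of Kif5 fragments among the 3 paralogs does not depend on library totals. Kif5a took 41.5% (95% Wilson interval 34.1 to 49.3%) and 32.1% (27.5 to 37.1%) of Kif5 counts in cerebellum. In cortex it took 66.9% (58.6 to 74.3%), 44.6% (38.3 to 51%) and 50% (30.7 to 69.3%), and in hippocampus 65% (60.8 to 68.9%), 57.4% (47.7 to 66.6%), 39.4% (24.7 to 56.3%) and 48.4% (38.6 to 58.3%). Cerebellum 2 lay below all 7 forebrain samples and cerebellum 1 below 6 of them, the exception being hippocampus 4 with 33 Kif5 counts. Kif5b took 13.2 and 18.3% in cerebellum, against 8.82, 3.03 and 13.6% in cortex and 5.3, 12.9, 9.09 and 4.21% in hippocampus. The forebrain samples differed widely among themselves, so that the Kif5a share averaged 36.8 ± 6.64% over the 2 cerebellum samples, 53.8 ± 11.6% over the 3 of cortex and 52.6 ± 11.1% over the 4 of hippocampus (SD). Short fragments of paralogs that resemble each other may be assigned to the wrong row, which the table does not show.

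**Figure D3:**
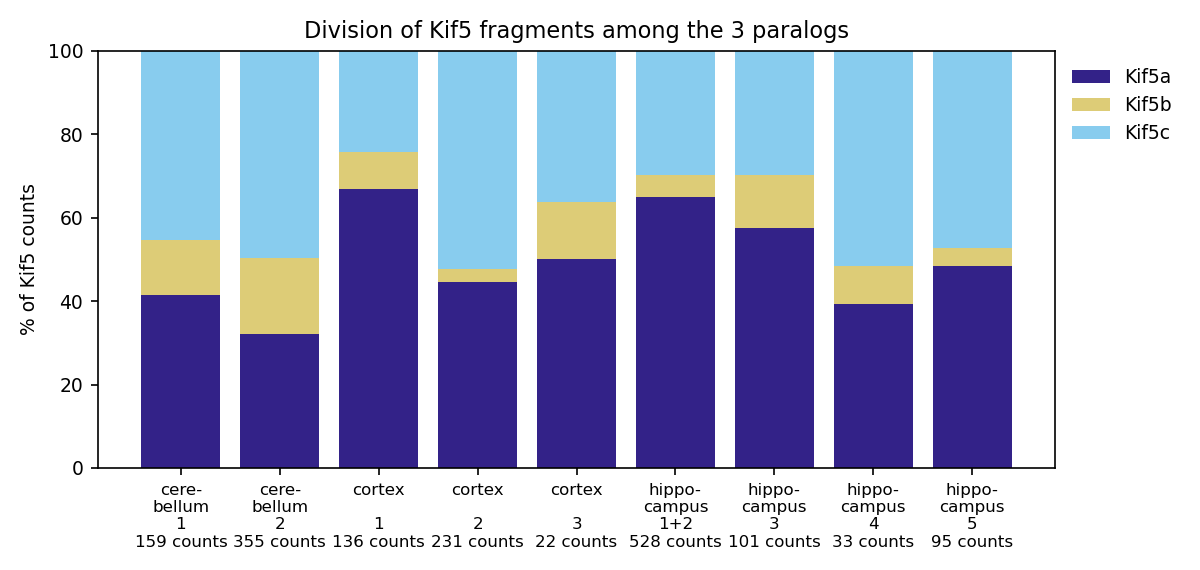
Share of Kif5 counts on Kif5a, Kif5b and Kif5c in each sample, with the Kif5 count below each bar. Kif5a takes 41.5 and 32.1% in the 2 cerebellum samples and 39.4 to 66.9% in the forebrain samples.

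Kif21b had 398.1 and 380 CPM in cerebellum, against 1139, 1380 and 504.3 CPM in cortex and 567.9, 298.3, 501.3 and 371.6 CPM in hippocampus. Cortex 1 and cortex 2 were the highest samples, and cerebellum lay at the level of the lower hippocampus samples. The log2 fold change was -0.78 for cerebellum over forebrain (SE 0.49, adjusted p = 0.436, edgeR) and 0.9 for cortex over hippocampus (SE 0.45, unadjusted p = 0.0444, adjusted p = 0.999, edgeR). The cortex over hippocampus value was 0.69 in the code of cortex 1 and 0.8 in that of cortex 2 and 3, and neither comparison passed. It was 0.52 without cortex 2. Kif21a, its paralog, had 136.2 and 212.8 CPM in cerebellum against 99.8 to 336.2 CPM in the 7 forebrain samples (median 215.1), with a log2 fold change of -0.13 (SE 0.58) that was 0.02 with library totals alone.

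Kif3c, a neuronal kinesin-2 subunit, had 146.7 and 152 CPM in cerebellum, against 227.9, 286.8 and 336.2 CPM in cortex and 176.5, 230.1, 319 and 232.2 CPM in hippocampus. Both cerebellum samples lay below every forebrain sample, as in 4.3% of tested rows, but the log2 fold change of -0.69 did not pass (SE 0.56, adjusted p = 0.633, edgeR). It was -0.22 without cerebellum 2, -0.23 without hippocampus 3 and -0.31 without the 3 samples that stand apart. Kif3b and Kif3a, the other kinesin-2 subunits named above, did not pass the filter on low counts, with 62 and 50 counts over the 9 samples. Kif3b had 104.8 and 86.1 CPM in cerebellum against 0 to 252.1 CPM in the forebrain samples, and Kif3a 52.4 and 81.1 CPM against 0 to 197.2 CPM.

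Kif2a, a kinesin that takes microtubule ends apart and limits the growth of axon branches, had 10.5 and 76 CPM in cerebellum, against 293, 179.3 and 252.1 CPM in cortex and 99.8, 42.6, 91.1 and 232.2 CPM in hippocampus. The lowest value, in cerebellum 1, rests on 1 count. The log2 fold change was -1.57 (SE 0.88, adjusted p = 0.351, edgeR), with -3.98 and 0.23 in the codes of cerebellum 1 and cerebellum 2. Without cerebellum 2, which leaves cerebellum 1 alone, it was -3.57 and did not pass. It passed without the 3 samples that stand apart (-3.63, adjusted p = 0.0203, edgeR), again with cerebellum 1 alone. Kif13a, a carrier of endosomal cargo, had 146.7 and 187.5 CPM in cerebellum against 84 to 418 CPM in the 7 forebrain samples (median 197.2; log2 fold change -0.09, SE 0.57, and 0.01 with library totals alone).

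**Figure D4:**
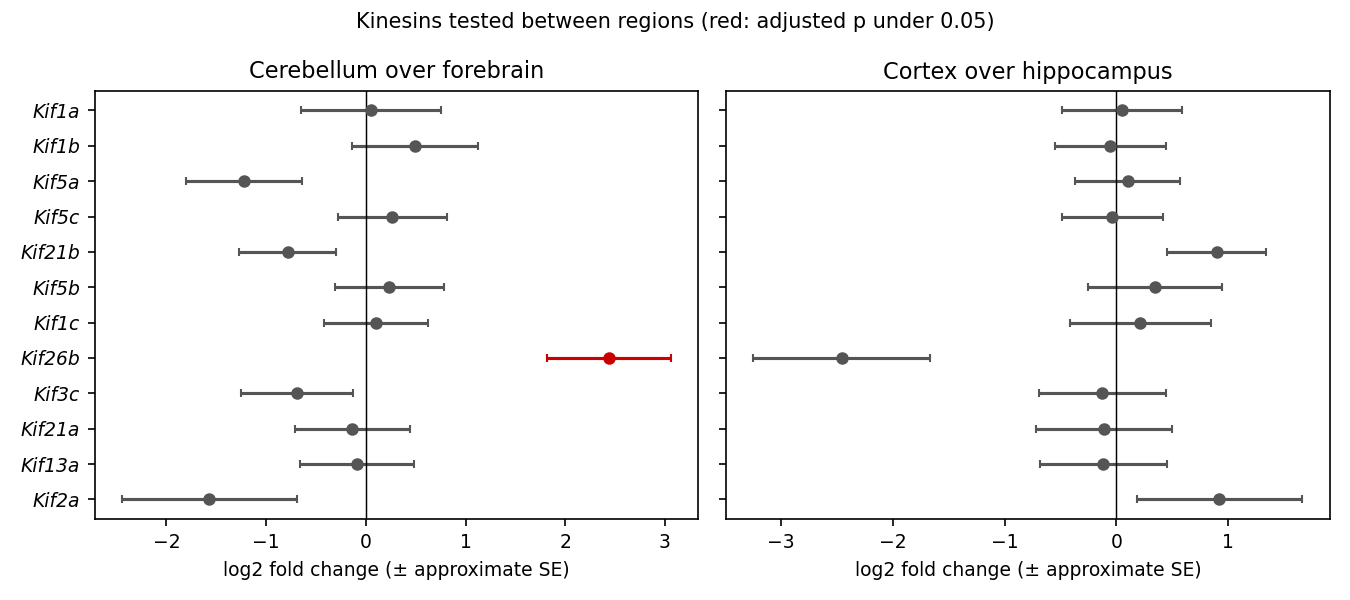
Log2 fold change of each tested kinesin for cerebellum over forebrain (left) and cortex over hippocampus (right), with the approximate SE as bars and red for adjusted p under 0.05. Kif26b is the only red point, at 2.44 on the left, and stands lowest on the right at -2.46.

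Kif26a, the paralog of Kif26b, gave 29 counts in all and Kif17, a dendritic carrier of NMDA receptors, 18, and neither passed the filter. With no filter, 37 kinesins were tested between cerebellum and forebrain and 0 were called in edgeR, with 1 at an unadjusted p under 0.05. Over all 30818 rows tested in that way 1 was called and 461 had such a p, so these counts are no result about kinesins. Kif13b and Kif16b, both carriers of membrane cargo, had 44 and 43 counts. In cerebellum Kif13b had 125.7 and 55.7 CPM, against 0 to 92.9 CPM in forebrain, and Kif16b 62.9 and 91.2 CPM, against 0 to 84 CPM. At such counts a difference between regions was not detectable.

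Mitotic kinesins gave few fragments in every region. Summed over the 12 genes they had 261.9 and 278.6 CPM in cerebellum, against 195.3, 125.5 and 420.2 CPM in cortex and 299.3, 400.6, 410.1 and 139.3 CPM in hippocampus. These sums rest on 25 and 55 counts in cerebellum and on 3 to 47 counts in the forebrain samples, and cerebellum lay inside the forebrain range. Kif4, a chromosome-arm motor that is also found in young neurons, led with 38 counts, of which its pseudogene Kif4-ps, with 9 counts of its own, may hold or lend some. Kif14, a motor of cytokinesis, had 23 counts, Kif20b, which also acts in cytokinesis, 22 and Kif18b, which shortens spindle microtubules, 21. Kif11, the motor that pushes spindle poles apart, had 19 counts, with 10.5 and 30.4 CPM in cerebellum against 0 to 92.9 CPM in forebrain.

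Across the forebrain samples, transport sums were low where mitotic sums were high. Transport kinesins summed to 7993 and 8410 CPM in cerebellum, against 15559, 14879 and 7732 CPM in cortex and 13445, 3546, 6744 and 16023 CPM in hippocampus. The 3 forebrain samples with the highest share of predicted gene names had the lowest transport sums (3546 to 7732 CPM) and the highest mitotic sums (400.6 to 420.2 CPM). The mitotic sums of the other 4 forebrain samples were 125.5 to 299.3 CPM. The mitotic sums are imprecise, with 95% Poisson intervals of 136 to 981 CPM in cortex 3 and 28.7 to 407 CPM in hippocampus 5. The same 3 samples also had the highest forebrain sums of ciliary and other kinesins (252.1, 281.3 and 227.9 CPM, against 32.6 to 184.2 CPM in the other 4) and of proliferation genes that are no kinesins (1093, 664.8 and 774.7 CPM, against 195.3 to 498.8 CPM), so the pattern was shared by the other low-count lists. The part of the predicted-gene share in these differences was not tested.

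**Figure D5:**
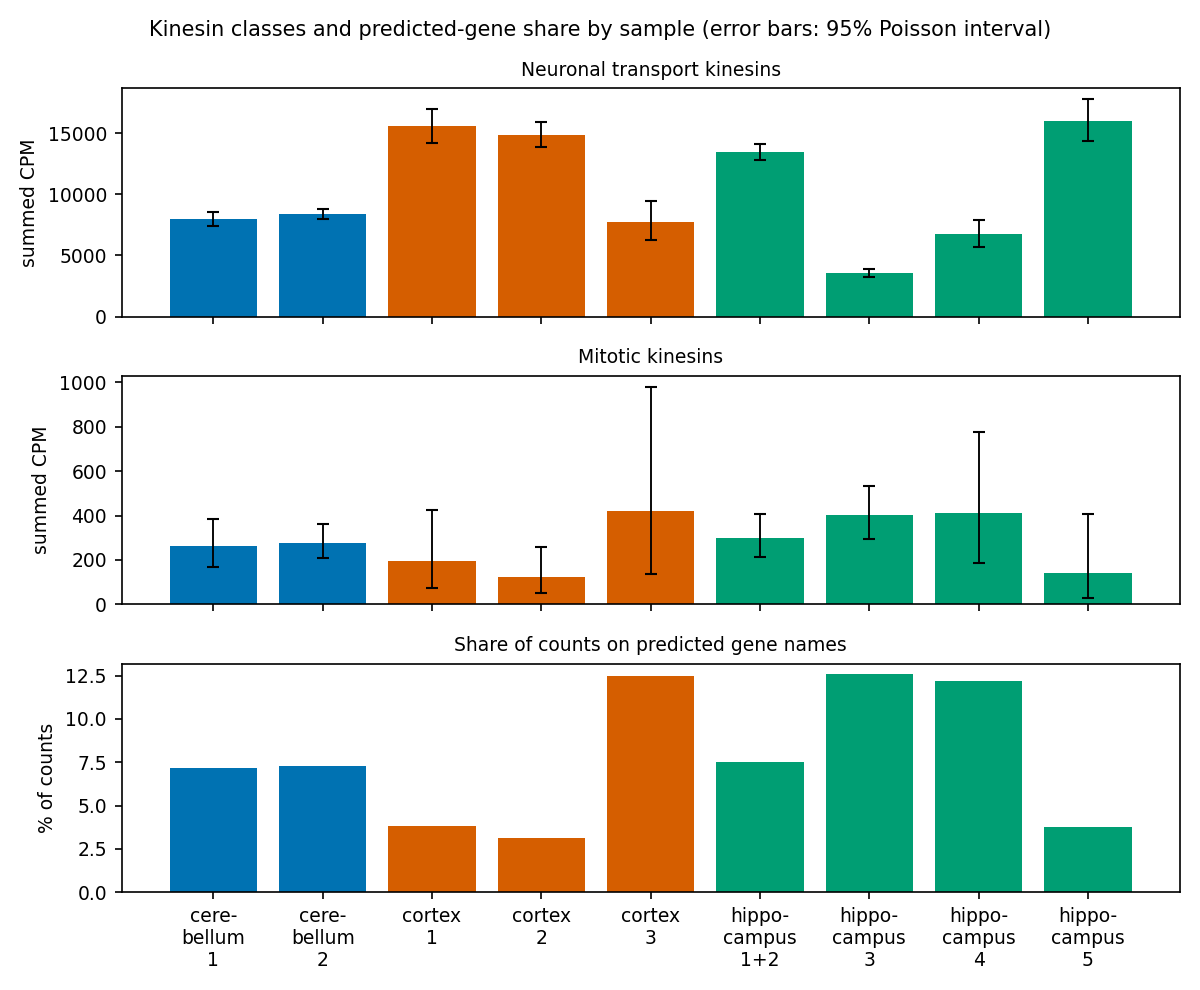
Summed CPM of the 18 transport kinesins (top) and the 12 mitotic kinesins (middle) with 95% Poisson intervals, and the share of counts on predicted gene names (bottom), in each sample. Cortex 3, hippocampus 3 and hippocampus 4 have the highest predicted-gene shares (12.2 to 12.6%), the lowest transport sums of the forebrain samples and the highest mitotic sums.

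All kinesins together took 0.835% (95% Wilson interval 0.779 to 0.895%) and 0.894% (0.853 to 0.936%) of counts in cerebellum. They took 1.58, 1.51 and 0.84% in cortex and 1.39, 0.423, 0.738 and 1.63% in hippocampus. Without the 3 samples that stand apart, the forebrain shares were 1.39 to 1.63%, all above cerebellum, and with them the ranges overlapped.

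Proliferation genes other than kinesins were as scarce. The 25 genes had 437 counts over the 9 samples, 0 passed the filter, and their sum was 586.7 and 896.7 CPM in cerebellum against 195.3 to 1093 CPM in forebrain. Mki67, which marks cycling cells, had 21 and 268.5 CPM in cerebellum against 0 to 84 CPM in forebrain, so that cerebellum 2 held 53 of its 77 counts. Aspm, a spindle pole protein, had 48 counts and Cenpf, a kinetochore protein, 41.

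The ciliary and other kinesins summed to 94.3 and 248.3 CPM in cerebellum against 32.6 to 281.3 CPM in forebrain. Kif6 and Kif19a, both of motile cilia, had 27 counts each, Kif24, which acts at the base of cilia, 23 and Kif27 20. Kif7, a regulator of Hedgehog signalling at the tip of the primary cilium, had 13 counts, with 0 and 20.3 CPM in cerebellum against 0 to 136.7 CPM in forebrain.

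Of the kinesin light chains, adaptors and C-terminal motors, 33 of 34 listed genes had a row, 14 were tested and 0 were called between cerebellum and forebrain in edgeR, with 3 at an unadjusted p under 0.05. Over all tested rows 7.67% were called and 18% had an unadjusted p under 0.05, so these counts are no result about the list. Their median log2 fold change was 0.2, from -1.4 to 1.21. Trak2, which links kinesin to mitochondria, had 1550.5 and 1064 CPM in cerebellum, against 1172, 914.2 and 588.3 CPM in cortex and 1166.5, 144.9, 227.9 and 1115 CPM in hippocampus. Its value on the log2 scale was 1.21 (SE 0.52, adjusted p = 0.161, edgeR). Spag9, a scaffold that binds kinesin light chains, had a log2 fold change of 0.56 (SE 0.47). Between cortex and hippocampus 0 of the 14 were called in edgeR, and 0 were at an unadjusted p under 0.05.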

How the data were processed

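The authors deposited a table of whole-number fragment counts per gene symbol for 11 libraries, used as deposited, with 0 sample columns unused. Reads went through Bowtie 0.12.7 and Picard with build mm10, per the submitters' processing notes. For the counting program, annotation, strand, duplicates and filters nothing is given in the sources used here, so fragments of overlapping genes cannot be told apart.

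Libraries hippocampus 1 and hippocampus 2 agree within sampling noise: chi-square over its degrees of freedom was 1.03 (p = 0.192, 1873 rows), against 1.49 to 8.62 for the other 13 pairs of a region. They were summed and counted as 1 sample. Regions were compared over the 9 samples by quasi-likelihood in edgeR 4.0.16 (R 4.3.3), with TMM factors, filterByExpr by region, the numeric title code (3 codes) as a block, 4 residual degrees of freedom and Benjamini-Hochberg adjustment over 1720 rows. The code of cortex 2, cortex 3, hippocampus 4 and hippocampus 5 holds no cerebellum sample. Under the block these samples are not set directly against cerebellum. The labels explain neither the codes nor whether animals were separate. The p-values therefore reflect only how these samples vary, which may be technical. Deviations from region means (log2 of CPM + 1) correlated with a median r of 0.12 over 8 pairs of the same code and -0.04 over 18 pairs of different codes, across genes. Within-code values use TMM factors. SE, which is approximate, is the size of the log2 value over the root of F.

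The test was also run on simulated data. Among changed genes that passed the filter, it called 78.8% of 85 changed 4-fold in cerebellum and 97.8% of 91 changed 16-fold. Changed genes that the filter removed are not in these shares. Among the 1288 genes fitted, 9 unchanged ones were called. The simulated samples had no title-code effect and none stood apart, so the simulation cannot show how the test fares with either. Intervals and floors cover counting error only. Lengths come from the longest coding transcript of GENCODE M21, found for 37 of 37 kinesins. All kinesins that passed the filter are named, with the 4 of most counts in each class among the others; Kif11, Kif7, Kif26a and Kif17 were added after their values were seen. A gene of the adaptor list is not reported here. Members, classes and lists were chosen with earlier results of these data known. DESeq2 1.42.0 and other settings were tried as alternatives.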

Additional observations from a re-analysis of the deposited data

Results flagged for a closer look

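The library whose title names cortex and whose tissue label names hippocampus entered no comparison. Its 30344 counts gave 10183 CPM for the summed neuronal transport kinesins (309 counts), above the 98.9 CPM that a count of 0 allows. The mitotic kinesins gave 3 counts in it, at that limit, and Kif26b gave 0. Among 22 sets of 4 hippocampus values examined for a sample far from the others, 0 held one.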

How the results depend on the processing

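The number of kinesins called between cerebellum and forebrain was 1 without the replicate block (where 156 of all rows were called), with library totals alone, with DESeq2, with hippocampus 1 and 2 apart and with the library of conflicting labels added as cortex, and the kinesin was Kif26b each time. That library has a title code of its own, so it informs no contrast under the block; without the block (added after seeing the data) the count was also 1. It was 0 without the filter on low counts, 4 without hippocampus 3, hippocampus 4 and cortex 3 (Kif1a, Kif5a, Kif26b and Kif2a), and 0 to 2 with single samples left out, the second being Kif5a without hippocampus 3. Over all rows the 132 calls became 54 with library totals alone, 87 with DESeq2, 1 without the filter, 215 without the 3 samples, 81 without hippocampus 1+2, and 2 to 176 with single samples left out (2 without cerebellum 1, 17 without cerebellum 2, 15 without cortex 1). Library totals alone moved the median of all rows to 0.12 for cerebellum over forebrain, with 37 of 54 calls higher against 67 of 132, and to 0.24 for cortex over hippocampus. Between cortex and hippocampus no setting called a kinesin; all rows gave 1 call with hippocampus 1 and 2 apart, with DESeq2 and with the library of conflicting labels (with or without the block), 3 without the 3 samples and 0 to 1 with single samples left out.

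Log2 fold changes of cerebellum over forebrain that had not passed the threshold changed sign as follows; the cause was not tested. Without the replicate block Kif1a was -0.34, Kif1b -0.054 and Kif5c -0.38. Without the 3 samples Kif1a was -0.88 (now called, adjusted p = 0.0078, edgeR), Kif1b -0.36, Kif5c -0.48, Kif5b -0.19 and Kif21a 0.30. With the library of conflicting labels Kif1a was -0.0059. With library totals alone Kif21a was 0.020 and Kif13a 0.013, and without the filter each was 0.27. For cortex over hippocampus, Kif1a was -0.027 with hippocampus 1 and 2 apart. Without the replicate block Kif1b was 0.051, Kif5c 0.15 and Kif1c -0.038. With library totals alone Kif1b, Kif5c and Kif13a were 0.16, Kif3c 0.19 and Kif21a 0.21, and without the filter Kif1b and Kif5c were 0.19, Kif3c 0.16, Kif21a 0.17 and Kif13a 0.013. Without the 3 samples Kif1a was -0.25, Kif5a -0.14, Kif3c 0.19, Kif21a 0.17 and Kif13a 0.13.

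With single samples left out, cerebellum over forebrain ranged from -0.84 to 1.5 for Kif1a, -0.32 to 1.83 for Kif1b, -0.42 to 1.45 for Kif5c, -0.16 to 1.02 for Kif5b, -0.15 to 0.39 for Kif1c, -0.43 to 0.36 for Kif21a, -0.51 to 0.79 for Kif13a and -3.61 to 0.063 for Kif2a (Kif1c was -0.067 without hippocampus 1+2); without a change of sign it ranged from -1.01 to -0.22 for Kif3c, -1.81 to -0.19 for Kif5a and -0.82 to -0.53 for Kif21b. Cortex over hippocampus ranged from -0.18 to 0.54 for Kif1a, -0.37 to 0.34 for Kif1b, -0.11 to 0.53 for Kif5a, -0.496 to 0.28 for Kif5c, -0.11 to 0.72 for Kif5b, -0.060 to 0.65 for Kif1c, -0.40 to 0.203 for Kif3c, -0.43 to 0.22 for Kif21a and -1.11 to 0.24 for Kif13a, and without a change of sign from 0.52 to 1.18 for Kif21b, 0.24 to 1.43 for Kif2a and -3.02 to -1.85 for Kif26b. The lowest values of Kif1c, Kif3c and Kif21a came without hippocampus 1+2, where Kif1b was 0.061 and Kif5c 0.225; with any other sample left out Kif3c was at least -0.30 and Kif21a at least -0.206. Depth limits the 25 kinesins that did not pass the filter.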
